A study of Mus musculus with 12 samples.

Results

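The 46 genes described here drive the cell cycle and the copying of DNA, and they were measured by RNA-seq in epithelial cells of the mouse colon with and without the transcription factor TFEB. They were chosen by symbol, each symbol was found once in the tables, and together they are 46 of the 47632 genes listed. By role, 18 act in S phase, 19 in mitosis and 7 at entry from G1, and 2 more (Stmn1 and Hmgb2) are known for high levels in dividing cells. The comparisons were Tfeb ΔIEC against Tfeb flox/flox animals on each day, Day 4 against Day 0 within a genotype, and S phase against mitotic genes.

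All animals were C57/BL6 mice. Tfeb ΔIEC animals carried Tfeb flox/flox and villin-Cre, in which the villin promoter drives Cre recombinase in intestinal epithelium, and the samples labelled WT were Tfeb flox/flox littermates without Cre, so both genotypes carried the floxed allele. Day 0 animals were untreated and aged 10 and 12 weeks. Day 4 animals (12 weeks) were in the period of dextran sulfate sodium (DSS) in the drinking water, a chemical that injures the colonic epithelium, and Day 11 animals (10 weeks) had gone back to plain water. The sample labels give 2.5% DSS, and the methods of the study give a slightly lower dose. With 2 animals per genotype and day, 12 animals were used.

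Each table gives 1 value per gene and genotype, in FPKM (fragments normalised to transcript length and library size), which the authors made from both animals. No value therefore has an SD, no difference has a replicate check, and no p-value is given. Differences are on the log2(FPKM + 1) scale, Tfeb ΔIEC minus Tfeb flox/flox, which understates those of low genes, and "2-fold" means a difference of at least 1 on this scale among genes with at least 1 FPKM in either group.

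Tfeb itself was at 0.901 FPKM in Tfeb flox/flox against 0.185 in Tfeb ΔIEC before DSS, and on Days 4 and 11 it was listed at 0 in Tfeb ΔIEC against 1.08 and 1.18 in the controls. All 12 epithelial markers examined were above 1 FPKM in every group, and they summed to between 33762 and 42868 FPKM. On Day 4, 8 of them were higher and 4 lower in Tfeb ΔIEC, 5 and 1 by at least 2 times: Krt20, a keratin of mature colonocytes, was at 101 FPKM in the controls and 931 in Tfeb ΔIEC, the chloride exchanger Slc26a3 at 33.3 and 271, Vil1 (villin) at 30.6 and 224, and Cdh1 (E-cadherin) at 24.5 and 164, while Cldn3 (claudin 3) was at 1573 and 562. The part of these shifts in the genotype differences on Day 4 was not tested. The 14 immune markers summed to between 1.80 and 8.27 FPKM and the 12 stromal markers to between 3.07 and 6.33, with Ptprc, Cd3e and Col1a1 among those at or near 0. The immune sum on Day 4 was 3.88 in Tfeb flox/flox against 7.96 in Tfeb ΔIEC, and its part in the differences was not tested. The values of Days 4 and 11 were close to repeats of each other: among genes above 0 on both days, 1679 of 11746 in Tfeb flox/flox and 1310 of 12826 in Tfeb ΔIEC were identical to the last digit. Over the cell cycle genes the median fold between Days 4 and 11, in either direction, was 1.07 for Tfeb flox/flox and 1.09 for Tfeb ΔIEC, and between Days 0 and 4 it was 3.10 and 2.83. Day 11 was for this reason not read as a second observation.

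The files hold no counts, but low values fall on steps that correspond to whole fragments. On Day 0, 1 fragment on a transcript of 2000 nt was worth 0.230 FPKM in Tfeb flox/flox against 0.218 in Tfeb ΔIEC, and 86.8% and 85.7% of the low values lay within 0.15 of a whole number of fragments. On Day 4 the steps were less clean (50.6% and 45.1%), and the corresponding values of 0.314 and 0.152 FPKM are rough. On this scale the cell cycle genes rested on few fragments: 7 of 46 had under 10 on Day 0 in Tfeb flox/flox, with a median of 23.5 fragments, and on Day 4 27 of 46 had under 10 there, against 13 in Tfeb ΔIEC. Differences of single genes on Day 4 are therefore coarse.

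Cells that divide pass through G1, copy their DNA in S phase, and separate it in mitosis. D cyclins with CDK4 and E cyclins with CDK2 act at the end of G1 and release E2F transcription factors, and the inhibitors p21 (Cdkn1a) and p27 (Cdkn1b) hold these kinases back. E2F acts on genes of DNA replication, while most mitotic genes are turned on later through the CHR element (cell cycle genes homology region), often near CCAAT boxes bound by NF-Y. In the colon, division takes place in the lower crypt, and cells leave the cycle as they move up towards the lumen. In bulk RNA, fewer dividing cells and less RNA per dividing cell cannot be told apart.

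The S phase and mitotic genes differed in these elements, which were sought as exact letters on both strands of RefSeq promoter windows (GRCm38.p6, from 250 bases before to 50 bases after the start of the gene). The letters were TTTCCCGC, TTTCGCGC, TTTGCCGC and TTTGGCGC for E2F, TTTGAA and TTCGAA for CHR, and CCAAT. No word of one kind contains one of another, and matches of the same kind can overlap. Windows were found for 36 of the 46 genes, 15 of them S phase and 15 mitotic. Mcm4, Gins1, Gins2, Ccna2, Aurkb, Kif20a, Tpx2, Ccnd1, Ccnd2 and Stmn1 had none. An E2F word was present in 7 of 15 S phase genes and 1 of 15 mitotic genes (Cdk1), against 2.6% of all 27025 genes with a window. CHR and CCAAT were both present in 13 of 15 mitotic genes and 2 of 15 S phase genes (Mcm2 and Mcm7), against 9.65% of all genes. CCAAT alone is common: it was found in 8 of 15 S phase genes, 14 of 15 mitotic genes and 41.1% of all genes, and CHR in 21.7% of all genes. A match is a description of the letters and not a bound site.

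The 250 bases before the start are shown for 4 genes that represent the groups: Mcm6 (chr1:128359706-128359955, minus strand) and Mcm5 (chr8:75109259-75109508, plus strand), which hold overlapping E2F words, Cdk1 (chr10:69352913-69353162, minus strand), which holds E2F and CHR words, and Ube2c (chr2:164769679-164769928, plus strand), which holds CHR and CCAAT words without E2F. Capitals mark every match of the 3 kinds, 5′ to 3′ on the strand of the gene.
Mcm6: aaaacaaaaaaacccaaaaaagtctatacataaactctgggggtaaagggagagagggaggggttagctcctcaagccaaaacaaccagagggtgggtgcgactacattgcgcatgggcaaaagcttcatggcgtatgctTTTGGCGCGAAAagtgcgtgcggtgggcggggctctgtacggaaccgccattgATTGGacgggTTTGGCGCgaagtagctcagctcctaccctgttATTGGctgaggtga
Mcm5: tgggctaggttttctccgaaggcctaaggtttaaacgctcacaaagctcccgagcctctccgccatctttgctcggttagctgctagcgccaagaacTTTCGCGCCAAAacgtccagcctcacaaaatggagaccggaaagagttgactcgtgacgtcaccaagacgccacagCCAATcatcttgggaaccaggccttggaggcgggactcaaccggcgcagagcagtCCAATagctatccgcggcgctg
Cdk1: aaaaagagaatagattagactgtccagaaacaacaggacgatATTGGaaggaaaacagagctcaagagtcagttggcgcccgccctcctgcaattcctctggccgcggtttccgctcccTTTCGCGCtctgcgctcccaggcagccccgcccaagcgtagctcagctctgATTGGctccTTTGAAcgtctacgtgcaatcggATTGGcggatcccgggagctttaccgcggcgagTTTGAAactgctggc
Ube2c: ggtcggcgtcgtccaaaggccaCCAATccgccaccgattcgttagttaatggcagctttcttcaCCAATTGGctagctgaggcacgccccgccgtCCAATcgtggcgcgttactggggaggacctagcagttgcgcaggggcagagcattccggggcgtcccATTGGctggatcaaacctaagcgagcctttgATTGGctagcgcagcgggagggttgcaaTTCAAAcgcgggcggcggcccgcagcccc

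The S phase and mitotic genes were lower on Day 4 than on Day 0 with few exceptions. In Tfeb flox/flox animals 16 of the 18 S phase genes and 18 of the 19 mitotic genes were lower on Day 4 than on Day 0, and the remaining mitotic gene (Ect2) was listed at 0 on both days. In Tfeb ΔIEC animals all 18 S phase and all 19 mitotic genes were lower in the values as given. Among all genes whose values differed between these days, 57.9% were lower on Day 4 in Tfeb flox/flox against 61.1% in Tfeb ΔIEC. The tables of the 2 days were normalized separately, and the animals of the 2 days also differ in age, so levels are set side by side. Epithelial markers moved between these days as well, in both directions. In Tfeb flox/flox Slc26a3 went from 85.8 to 33.3 FPKM and Vil1 from 85.4 to 30.6. Others rose there, with Krt8 from 987 to 1865, Krt19 from 3018 to 5453 and Cldn3 from 836 to 1573. In Tfeb ΔIEC Krt20 went from 101 to 931, Slc26a3 from 112 to 271 and Vil1 from 123 to 224, while Muc2 fell from 2744 to 1894. The part of these shifts in the cell cycle differences was not tested.

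Cdk1 (ENSMUSG00000019942, chr10:69336635-69352938 of mm10), the kinase that starts mitosis, was at 16.5 FPKM on Day 0 and 4.89 on Day 4 in Tfeb flox/flox, and at 14.5 and 4.62 in Tfeb ΔIEC. Ccna2 (cyclin A2), a partner of Cdk1 and Cdk2, was at 20.2 and 4.68 FPKM in Tfeb flox/flox and at 19.7 and 5.71 in Tfeb ΔIEC. For Cdk1 and Ccna2 the genotypes were thus much closer to each other than the days were. Ube2c, a ubiquitin-conjugating enzyme of the anaphase-promoting complex, was the mitotic gene with the highest level in Tfeb flox/flox, with 30.9 and 14.7 FPKM in Tfeb flox/flox and 19.4 and 10.1 in Tfeb ΔIEC. Aurkb, the kinase of the chromosomal passenger complex, was at 5.07 FPKM on Day 0 and 0.350 on Day 4 in Tfeb flox/flox, and at 6.21 and 1.90 in Tfeb ΔIEC. Plk1, a kinase of spindle assembly, was 5.32-fold lower on Day 4 in Tfeb flox/flox, and 3.76-fold lower in Tfeb ΔIEC.

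S phase genes followed. Rrm1, the large subunit of ribonucleotide reductase, was at 4.88 FPKM on Day 0 and 0.447 on Day 4 in Tfeb flox/flox, a 10.9-fold difference, and at 5.87 and 2.03 in Tfeb ΔIEC. Its small subunit Rrm2 was 5.51-fold and 2.83-fold lower on Day 4. The 6 Mcm genes, which encode the replicative helicase, were all lower on Day 4 in both genotypes, by 1.38-fold (Mcm2) to 7.13-fold (Mcm5) in Tfeb flox/flox and by 1.58-fold (Mcm4) to 3.20-fold (Mcm5) in Tfeb ΔIEC. The log2 difference of Mcm2 in Tfeb flox/flox turned from -0.37 to 0.22 after the median of genes of like length was subtracted. Cdc6 and Gins1, which act in loading and activating the helicase, were listed at 0 in both genotypes on Days 4 and 11. Tyms (thymidylate synthase) was near its Day 0 level in both genotypes, with 7.42 FPKM on Day 0 and 7.74 on Day 4 in Tfeb flox/flox and 5.40 and 5.26 in Tfeb ΔIEC. Its difference in Tfeb flox/flox turned from 0.05 to -0.45 when groups were divided by their sums. Dut was as close in Tfeb flox/flox only (8.39 and 8.05 FPKM), and Lig1 in Tfeb ΔIEC only (4.41 and 4.27). Gins2 was higher on Day 4 in Tfeb flox/flox (3.11 against 1.72 FPKM) and lower in Tfeb ΔIEC (2.38 against 3.41).

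On the log2(FPKM + 1) scale the median difference of Day 4 from Day 0 was -0.95 over the 17 S phase genes and -1.07 over the 14 mitotic genes that passed the filter in Tfeb flox/flox, and -1.07 over 17 and -0.99 over 18 in Tfeb ΔIEC. The median over all genes was -0.20 in both genotypes. At least 2-fold lower were 7 of 17 S phase and 8 of 14 mitotic genes in Tfeb flox/flox, where 25.7% of all genes were, and 9 of 17 and 8 of 18 in Tfeb ΔIEC, where 15.6% were. Of these genes, 5 S phase and 5 mitotic genes in Tfeb flox/flox and 2 and 6 in Tfeb ΔIEC passed the filter only through Day 0, so these counts describe a selected set. None of the S phase and mitotic genes was 2-fold higher on Day 4, although 17.5% of all genes were in Tfeb flox/flox animals, and 9.26% in Tfeb ΔIEC. The S phase and mitotic medians stayed below 0 in both genotypes when groups were divided by their sums of FPKM or when the median of genes of like length was subtracted. Single genes turned: after the latter, 13 of 17 S phase and 13 of 14 mitotic genes were below 0 in Tfeb flox/flox. In Tfeb ΔIEC 15 of 17 and 17 of 18 were, all but Lig1, Tyms and Aurka.

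**Figure D1:**
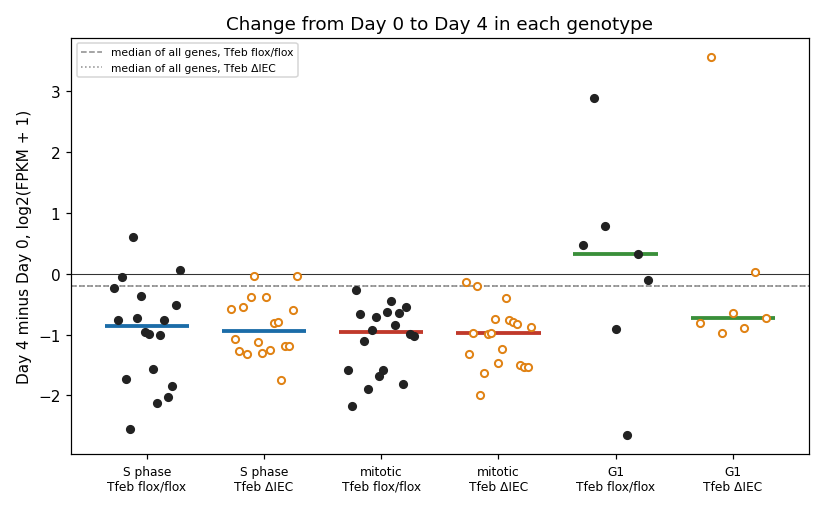
Day 4 minus Day 0 on the log2(FPKM + 1) scale for each S phase, mitotic and G1 gene above 0 on either day, in Tfeb flox/flox (filled) and Tfeb ΔIEC (open). Coloured bars are the medians over these genes, -0.86 and -0.94 for S phase and -0.96 and -0.98 for mitotic genes, and the grey lines are the median of all genes with at least 1 FPKM, -0.20 in both genotypes.

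Between genotypes the differences went both ways. Without regard to sign, their median on the log2 scale was 0.57 on Day 0 and 0.89 on Day 4 over the cell cycle genes that passed, and that of Day 4 against Day 0 was 0.97 in Tfeb flox/flox against 0.98 in Tfeb ΔIEC. On Day 0, 44 of the 46 genes passed the filter (Cdc6 and Bub1 did not), and 4 were at least 2-fold higher and 4 at least 2-fold lower in Tfeb ΔIEC. Of the 44, 5 passed only through Tfeb ΔIEC, Ect2 among them, and 0 only through Tfeb flox/flox. Over all genes 13.5% were higher and 16.1% lower by this measure. On Day 4, 37 genes passed, of which 7 were higher and 6 lower, where 25.6% and 26.1% of all genes were. Of the 37, 8 passed only through Tfeb ΔIEC and 3 only through Tfeb flox/flox, so these counts describe a selected set. Fen1, Rrm1, Aurkb, Ect2 and Cdk2, all among the higher genes, passed only through Tfeb ΔIEC. The balance of higher and lower genes depended on the scaling: 12 were higher and 0 lower after groups were divided by their sums, where 40.5% and 15.2% of all genes were, and 4 were higher and 11 lower after the median of genes of like length was subtracted, where 20.1% and 20.8% were. Of the 13 genes at least 2-fold apart on Day 4, Cdk4, Fen1 and Mcm6 were so under all 3 scalings, and the other 10 went under 2-fold in at least 1. On Day 11, 10 of 37 were higher and 6 lower, against 26.1% and 25.7%. There 9 of the 37 passed only through Tfeb ΔIEC and 2 only through Tfeb flox/flox. Without such scaling, the shares of the cell cycle genes were thus near or below those of all genes.

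**Figure D2:**
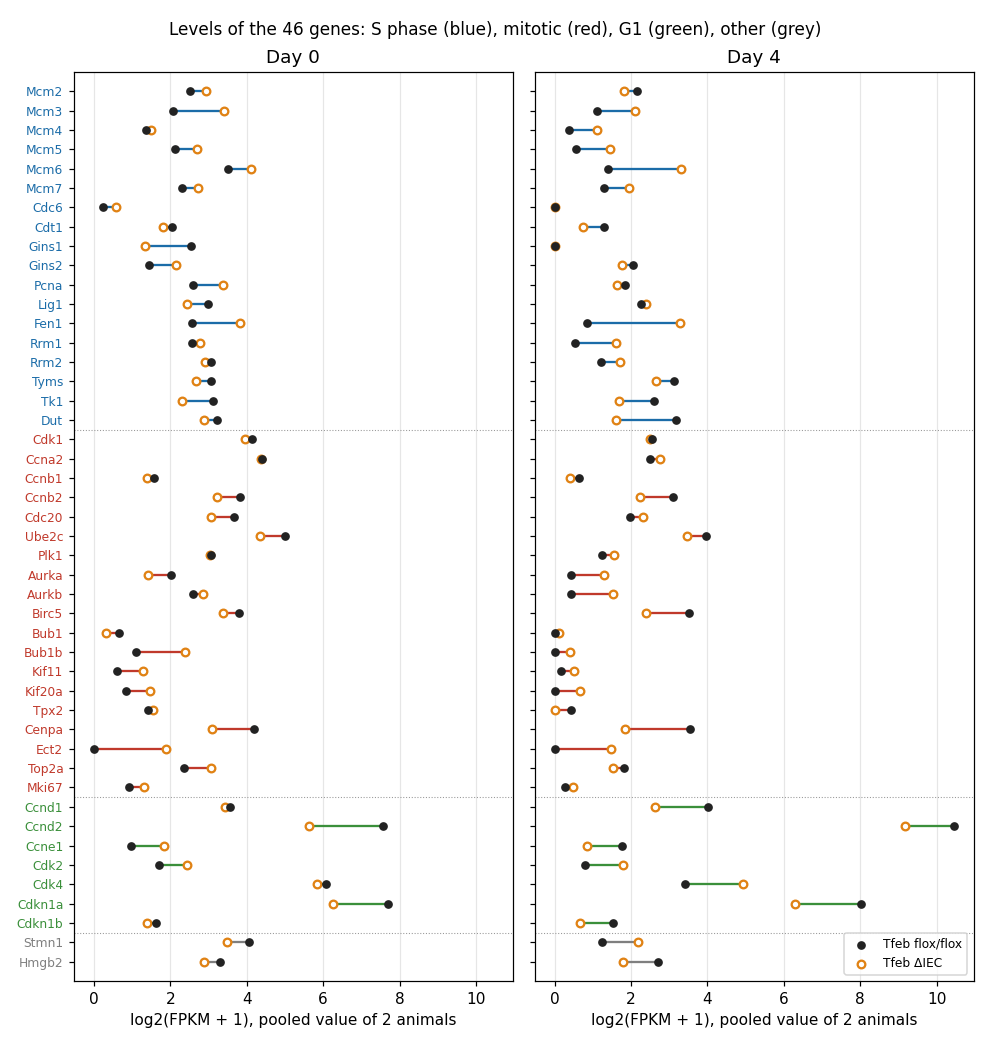
Levels of the 46 genes as log2(FPKM + 1) on Day 0 and Day 4, with Tfeb flox/flox filled, Tfeb ΔIEC open and a line joining both genotypes. Most points of both genotypes sit further left on Day 4, while Ccnd2 sits further right, at 1391 and 579.9 FPKM.

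Among S phase genes, the 6 of the Mcm helicase were above the control value in Tfeb ΔIEC on Day 0, as were 5269 of all 9993 genes. The differences ran from 0.12 (Mcm4) to 1.34 (Mcm3) on the log2 scale, only that of Mcm3 reached 2-fold, and that of Mcm4 turned to -0.22 after the median of genes of like length was subtracted. On Day 4, 5 of 6 were above the control, all but Mcm2, as were 4808 of all 9371 genes, and only Mcm6 reached 2-fold. Mcm6 (ENSMUSG00000026355, chr1:128331590-128359664) was at 10.5 FPKM in Tfeb flox/flox against 16.4 in Tfeb ΔIEC on Day 0, at 1.62 and 8.97 on Day 4, and at 1.48 and 9.31 on Day 11. This is a log2 difference of 0.60, 1.93 and 2.05. Mcm7 shares its locus in the tables with 6 other genes. Mcm3 was at 3.17 and 9.58 FPKM on Day 0, and at 1.15 and 3.28 on Day 4. Mcm2 was higher in Tfeb ΔIEC on Day 0 (6.63 against 4.75 FPKM) and lower on Day 4 (2.51 against 3.46), and the Day 4 direction turned when the groups were divided by their sums. The median of the 6 Mcm genes was 0.50, 0.81 and 0.81 on Days 0, 4 and 11, and 0.18 on each day after the median of genes of like length was subtracted.

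Fen1, the nuclease that trims Okazaki fragments, had the largest difference of the S phase genes on Day 4. It was at 4.93 FPKM in Tfeb flox/flox against 13.2 in Tfeb ΔIEC on Day 0, at 0.797 and 8.74 on Day 4 and at 0.841 and 10.2 on Day 11, log2 differences of 1.26, 2.44 and 2.60. The Tfeb flox/flox value of Day 4 rests on about 3 fragments and the Tfeb ΔIEC value on about 66. Fen1 shares its locus in the tables (chr19:10198368-10207824) with 2 other genes. Pcna, the sliding clamp of the replication fork, was at 5.08 and 9.38 FPKM on Day 0 and at 2.61 and 2.09 on Day 4. Its Day 4 difference of -0.22 rests on about 6 and 10 fragments and turned to 0.35 when groups were divided by their sums. Lig1, which joins Okazaki fragments, was at 6.90 and 4.41 FPKM on Day 0 and at 3.80 and 4.27 on Day 4.

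Of the 5 enzymes of nucleotide supply, 4 were below the control value in Tfeb ΔIEC on Day 0, none of them by 2-fold, as were 4724 of all 9993 genes. On Day 4, 3 of 5 were below it, as were 4563 of all 9371 genes, with 1 of the 5 at least 2-fold lower and 1 at least 2-fold higher. When groups were divided by their sums, the Day 4 median of the 5 turned from -0.48 to 0.24. Dut, which removes dUTP, was at 8.39 and 6.33 FPKM on Day 0, at 8.05 and 2.04 on Day 4 and at 6.93 and 2.75 on Day 11. Tk1 (thymidine kinase) was at 7.67 and 3.91 FPKM on Day 0 and at 5.07 and 2.23 on Day 4. The difference of Tyms on the log2 scale was -0.40 on Day 0 and -0.48 on Day 4, and the Day 4 direction turned when groups were divided by their sums. On Day 11 the difference was -0.38, with a control value identical to that of Day 4, and it turned likewise. The Day 4 differences of Rrm1 and Rrm2 were 1.06 and 0.50, the control value of Rrm1 rests on about 3 fragments, and after the median of genes of like length was subtracted the differences were 0.45 and -0.03. Of the genes of origin licensing and the GINS complex, Gins1 was at 4.83 FPKM in Tfeb flox/flox against 1.51 in Tfeb ΔIEC on Day 0. Cdt1 was at 3.14 and 2.51 FPKM on Day 0 and at 1.43 and 0.668 on Day 4. Cdt1 and Gins2 lie in 1 joined locus of 4435 kb that the tables give to 187 other genes besides each, so their values are uncertain.

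Among mitotic genes, Cdk1 and its cyclins differed little between genotypes on Day 0. The differences were -0.17 for Cdk1, -0.04 for Ccna2, -0.17 for Ccnb1 and -0.60 for Ccnb2. On Day 4 Cdk1 was at 4.89 FPKM in Tfeb flox/flox against 4.62 in Tfeb ΔIEC. Ccnb2 (cyclin B2) was at 13.1 and 8.32 FPKM on Day 0 and at 7.56 and 3.72 on Day 4. Both members of the anaphase-promoting complex pathway, Cdc20 and Ube2c, were lower in Tfeb ΔIEC on Day 0, with differences of -0.59 and -0.65, and on Day 4 the differences were 0.35 for Cdc20 and -0.50 for Ube2c, the latter turning to 0.28 when groups were divided by their sums.

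Cenpa, the histone of centromeres, was the mitotic gene furthest below the control in the values as given. It was at 17.2 FPKM in Tfeb flox/flox against 7.51 in Tfeb ΔIEC on Day 0, at 10.8 and 2.60 on Day 4, and at 10.1 and 2.72 on Day 11, log2 differences of -1.09, -1.71 and -1.58. Its median transcript length of 906 nt was the shortest among the 46 genes, and after the median of genes of like length was subtracted its differences on Days 0 and 4 were -0.77 and -1.05. When groups were divided by their sums, its Day 4 difference was -0.999, just under 2-fold. Birc5 (survivin), a partner of Aurkb in the chromosomal passenger complex, was at 12.8 and 9.36 FPKM on Day 0 and at 10.4 and 4.26 on Day 4, while Aurkb was higher in Tfeb ΔIEC on Day 4 by 1.10. The control value of Aurkb on Day 4 rests on about 1 fragment, and the Day 4 difference of Birc5 went from -1.12 to -0.39 when groups were divided by their sums. After the median of genes of like length was subtracted, that of Birc5 was -1.66, further below the control than Cenpa. Aurka, a kinase of the spindle poles, had a difference of -0.59 on Day 0 and 0.86 on Day 4, and Bub1b, a part of the spindle checkpoint, was at 1.16 and 4.26 FPKM on Day 0 and at 0 and 0.325 on Day 4.

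Ect2, which activates RhoA for cytokinesis, was listed at 0 in the controls on all 3 days and at 2.69, 1.80 and 1.69 FPKM in Tfeb ΔIEC, which corresponds to about 26 fragments on Day 0. A listed 0 can be a failed estimate, so no fold is given. Such genes were not rare: of 6735 genes with at least 10 fragments in Tfeb ΔIEC on Day 0, 71 were listed at 0 in Tfeb flox/flox, and of 6933 on Day 4, 301 were. In the other direction 53 of 6212 and 35 of 4586 genes were at 0 in Tfeb ΔIEC. Mki67, the usual marker of dividing cells, was at 0.903 and 1.47 FPKM on Day 0 and at 0.218 and 0.389 on Day 4, on a transcript of 10061 nt. Top2a, which untangles chromosomes, was at 4.13 and 7.35 FPKM on Day 0 and at 2.51 and 1.87 on Day 4. Bub1, Kif11, Kif20a and Tpx2 stayed below 2 FPKM in every group, and on Day 4 they failed the filter, as did Ccnb1, Bub1b and Mki67.

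Set against each other, S phase genes were somewhat higher in Tfeb ΔIEC than mitotic genes. The median difference between genotypes was 0.23 over 17 S phase and -0.02 over 18 mitotic genes on Day 0, 0.32 over 16 and 0.09 over 12 on Day 4, and 0.43 over 16 and 0.04 over 12 on Day 11. The S phase median exceeded the mitotic median by 0.25, 0.23 and 0.39. All 95% binomial intervals of these medians over genes included 0 and overlapped between the lists, from -0.48 to 0.99 for S phase and from -0.86 to 0.86 for mitotic genes on Day 4. Genes are not replicates, and these intervals cover the spread between genes only. Of the 18 mitotic genes on Day 0, 4 passed the filter only through Tfeb ΔIEC (Kif11, Kif20a, Ect2 and Mki67) and 0 only through Tfeb flox/flox. Of the mitotic genes on Day 4, 3 passed the filter only through Tfeb ΔIEC and 0 only through Tfeb flox/flox, and of the S phase genes 4 and 1. Over all 46 genes without a filter, 23 were higher, 21 lower and 2 equal on Day 4.

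The sign of both medians depended on what the genes were compared with. On Day 4 short transcripts were lower in Tfeb ΔIEC throughout the tables: the median difference was -1.89 in the shortest of 10 length classes of equal size, -0.66 in the third and 0.65 in the eighth. The S phase genes had a median length of 2842 nt and the mitotic genes of 2023 nt among those that passed. Genes of like length had a median of 0.61 for the S phase and 0.45 for the mitotic genes, and after this was subtracted gene by gene the medians became -0.22 and -0.53. Dividing the groups by their sums of FPKM, where the sum was 1.79 times larger in Tfeb flox/flox than in Tfeb ΔIEC on Day 4, moved the median of all genes from 0.06 to 0.66 and those of the S phase and mitotic genes to 0.89 and 0.70. With a minimum of 5 FPKM in either genotype, which left 5 genes of each list on Day 4, the medians were -0.48 and -0.86. The S phase median stayed above the mitotic one in each case. Of the 16 S phase and 12 mitotic genes, 10 and 7 kept their sign on Day 4 under all 3 scalings, among them those at least 2-fold apart. The others were Mcm2, Gins2, Pcna, Lig1, Rrm2 and Tyms of the S phase genes and Cdk1, Ccna2, Ube2c, Plk1 and Top2a of the mitotic genes. The part of length in the differences of single genes was not tested.

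**Figure D3:**
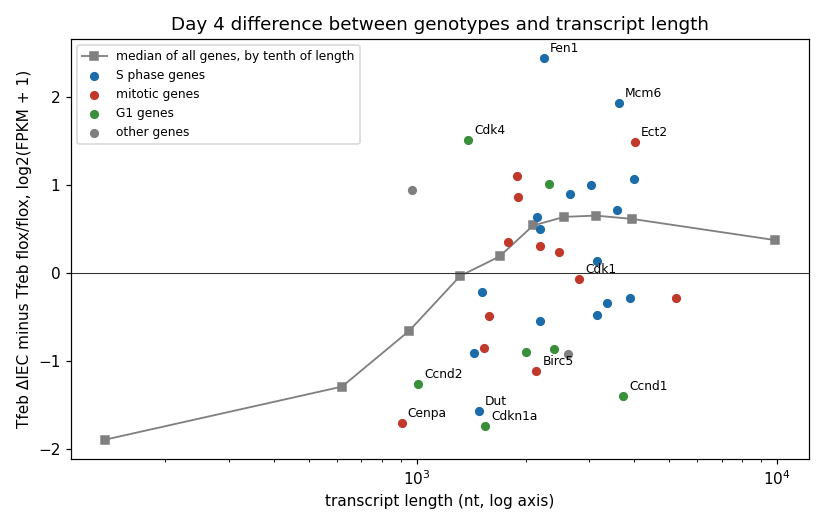
Difference between genotypes on Day 4, on the log2(FPKM + 1) scale, against transcript length on a log axis, for the 37 cell cycle genes that passed the filter and, in grey, the median of all genes in each of 10 length classes. Cenpa and Ccnd2 lie among short transcripts, where the grey line is low, while Ccnd1 (-1.40) lies far below it and Fen1 (2.44) and Mcm6 (1.93) far above.

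The G1 regulators included the genes with the highest levels. Ccnd2 (cyclin D2, ENSMUSG00000000184, chr6:127122966-127212411) was at 188 FPKM in Tfeb flox/flox against 48.2 in Tfeb ΔIEC on Day 0, at 1391 and 579.9 on Day 4, and at 1276 and 576 on Day 11. It was lower in Tfeb ΔIEC by 3.90-fold on Day 0 and 2.40-fold on Day 4, with 2.21-fold on Day 11. It was also the only one of the 46 genes at least 2-fold higher on Day 4 than on Day 0, by 7.41-fold in Tfeb flox/flox and 12.0-fold in Tfeb ΔIEC. Its annotated transcripts run from 983 to 6330 nt, so a level per length depends on the transcript to which fragments were assigned, and its locus in the tables is shared with 4 other genes, of which 1 reached 1 FPKM. Ccnd1 (cyclin D1) was at 10.8 and 9.76 FPKM on Day 0, at 15.3 and 5.17 on Day 4 and at 15.1 and 2.97 on Day 11. Cyclins D1 and D2 were thus lower in Tfeb ΔIEC on Day 4. Ccne1 (cyclin E1) was at 2.37 and 0.816 FPKM on Day 4, on about 8 and 5 fragments, but at 0.969 and 2.57 on Day 0. Its Day 4 difference went from -0.89 to -0.39 when groups were divided by their sums. Ccnd3 (cyclin D3), which is not among the 46 genes, was at 5.16 and 5.99 on Day 4.

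The kinases Cdk4 and Cdk2 were above the control value in Tfeb ΔIEC on Days 4 and 11, and on Day 0 Cdk4 was below it. Cdk4 was at 66.3 FPKM in Tfeb flox/flox against 55.8 in Tfeb ΔIEC on Day 0, at 9.72 and 29.5 on Day 4 and at 9.53 and 26.0 on Day 11, so it was 6.83-fold lower on Day 4 than on Day 0 in Tfeb flox/flox, and 1.89-fold lower in Tfeb ΔIEC. Cdk2 was higher in Tfeb ΔIEC by 0.74 on Day 0 and 1.01 on Day 4, with 1.05 on Day 11, and reached 4.43 FPKM at most. Cdkn1a (p21, chr17:29090979-29100722), an inhibitor of these kinases, was at 207 and 75.5 FPKM on Day 0, at 259 and 76.8 on Day 4 and at 265 and 80.5 on Day 11, a difference of -1.44, -1.74 and -1.71. Cdkn1b (p27) was at 2.11 and 1.63 FPKM on Day 0 and at 1.90 and 0.593 on Day 4. On each day all 7 G1 genes kept the sign of their difference between genotypes under each scaling, and the Day 4 differences of Ccnd1, Ccnd2 and Cdkn1a became -0.65, -0.43 and -0.91 when groups were divided by their sums.

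**Figure D4:**
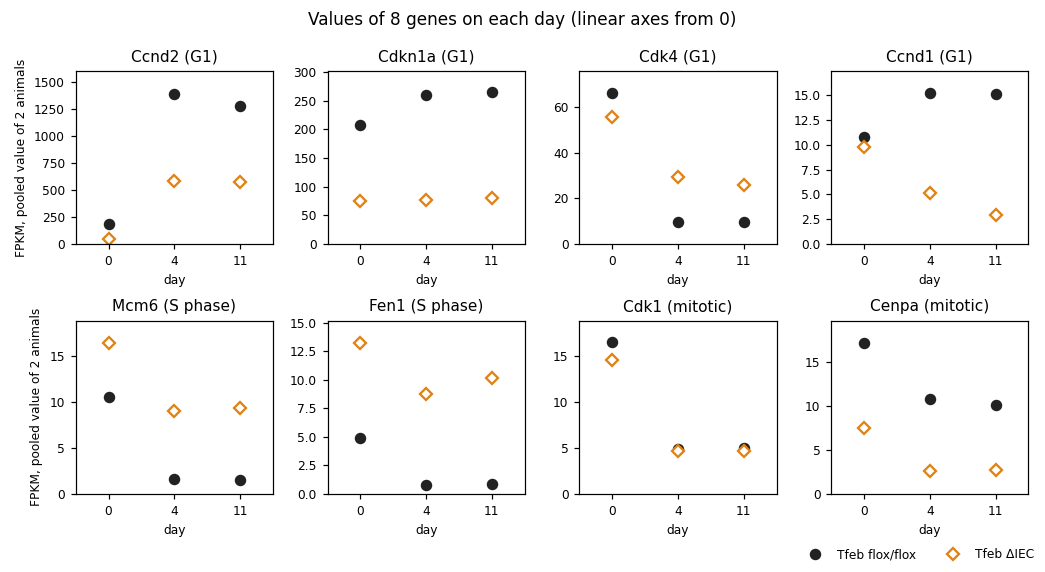
FPKM of 4 G1, 2 S phase and 2 mitotic genes on Days 0, 4 and 11 in Tfeb flox/flox (circles) and Tfeb ΔIEC (diamonds), each point 1 pooled value of 2 animals on a linear axis from 0. The genotypes are apart for Cdkn1a (259 and 76.8 on Day 4) and Mcm6 and together for Cdk1, and the points of Days 4 and 11 nearly coincide for most genes.

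Of the remaining genes, Stmn1 (stathmin), which destabilises microtubules, was at 15.6 and 10.3 FPKM on Day 0 and at 1.35 and 3.52 on Day 4. Hmgb2, a chromatin protein, was at 8.92 and 6.38 FPKM on Day 0 and at 5.53 and 2.46 on Day 4. Hmgb2 was lower in Tfeb ΔIEC on both days, and Stmn1 only on Day 0.

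Lists of further genes of the same pathways were examined as well, none of them among the 46. Of 42 other replication genes, 13 of the 30 that passed were at least 2-fold lower on Day 4 than on Day 0 in Tfeb flox/flox, where 25.7% of all genes were. In Tfeb ΔIEC 4 of 27 were, which is not above the 15.6% of all genes. Of 50 other mitotic genes, 22 of 36 and 17 of 32 were at least 2-fold lower. These are again selected sets, because 13 of the 30 and 8 of the 27 replication genes and 20 of the 36 and 13 of the 32 mitotic genes passed the filter only through Day 0. The difference between these genotype counts was not tested. Between genotypes on Day 4, 7 of 24 other replication genes were higher and 4 lower in Tfeb ΔIEC, and 10 of 26 other mitotic genes were higher and 6 lower, where 25.6% and 26.1% of all genes were. Of the 24 replication genes 7 passed the filter only through Tfeb ΔIEC and 5 only through Tfeb flox/flox, and of the 26 mitotic genes 10 and 7. The medians were 0.51 and 0.42, and after the median of genes of like length was subtracted they were 0.18 and -0.07, so that the mitotic median turned.

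The other replication genes highest in Tfeb ΔIEC relative to control on Day 4 were Slbp, which binds histone mRNA and was listed at 0 in the controls and at 4.81 FPKM in Tfeb ΔIEC, Orc4 of the origin recognition complex (1.07 and 7.21 FPKM) and Rpa1, which coats single-stranded DNA (0.207 and 3.46 FPKM). The lowest were Dbf4, the activator of the Cdc7 kinase (2.89 and 0.148 FPKM), Dctpp1, a dCTP pyrophosphatase (24.4 and 6.93 FPKM), and Mcm10 (2.72 and 0.541 FPKM). On Day 0 too, Dbf4 was at 2.79 FPKM in the controls and listed at 0 in Tfeb ΔIEC, and Dctpp1 was at 16.2 and 4.36 FPKM. Of the other mitotic genes, Pbk was listed at 0 and at 2.71 FPKM, Melk was at 0.582 and 4.46 FPKM, and Smc4, a condensin subunit, at 2.22 and 9.97 FPKM. The lowest were Cks1b, which binds CDKs and was at 5.38 FPKM in Tfeb flox/flox and listed at 0 in Tfeb ΔIEC, Spc24 of the kinetochore (7.60 and 0.474 FPKM) and Nusap1 of the spindle (5.79 and 0.986 FPKM).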

How the data were processed

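Colonic epithelial cells were released with DTT and EDTA, and full-length cDNA libraries were made by a variation of SmartSeq2 and sequenced as paired-end reads. Per the submitters' processing notes, reads were mapped to mm10 with TopHat2 2.0.14 and compared with Cuffdiff 2.1.1. The deposited tables, 1 for each of 3 days, hold 1 FPKM value per gene and genotype, which the authors made from 2 animals. The tables also hold the authors' fold changes, test statistics, p-values and q-values, which were not used. Groups follow the genotype and day given in the labels.

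Differences were computed as log2 of the FPKM values with a pseudocount of 1, over genes with at least 1 FPKM in either group, and counted from 2-fold. Medians have binomial (order statistic) 95% intervals over genes. Transcript length is the median over GENCODE M21 basic transcripts (47218 of 47632 genes matched by identifier). The worth of 1 fragment was the lowest peak of FPKM times length less 200 nt over genes with 1 transcript of at least 1200 nt. The counts of fragments are estimates, and no interval was derived from them. Promoter sequences are from RefSeq on GRCm38.p6. Coordinates are those of the tables, counted from 1. The steps were tested on simulated data. Software was Python 3.11.15 with pandas 2.3.3, numpy 2.4.6, matplotlib 3.10.9 and scipy 1.17.1.

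The 46 genes, their lists and the lists of further genes were chosen with earlier results of these data known. Every gene of the 46 could be named. Of each list of further genes, the 3 with the highest and the 3 with the lowest Day 4 difference were named, besides Tfeb and the markers. Alternatives changed the pseudocount, the filter, the scaling, the threshold, the treatment of values of 0 and the mitotic list.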

Additional observations from a re-analysis of the deposited data

Results flagged for a closer look

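Among the 46 genes and the 116 further genes of their pathways, 2 had differences of at least 2-fold in opposite directions on 2 days or in 2 genotypes, and both belong to the lists of further genes. They were chosen after their values had been seen, and the difference between the opposite values was not tested. Sgol1 (shugoshin), which protects the cohesion of sister chromatids at centromeres, had a log2 difference between Tfeb ΔIEC and Tfeb flox/flox of -1.56 on Day 0 and 1.30 on Day 4. From Day 0 to Day 4 its level differed by -1.76 in Tfeb flox/flox and by 1.10 in Tfeb ΔIEC. Sgol1 was at 2.94 FPKM in Tfeb flox/flox against 0.337 in Tfeb ΔIEC on Day 0, and at 0.165 and 1.86 on Day 4. Each of these comparisons thus passed the filter only through its higher value, and the lower values are near 0. Rfc1, the large subunit of the clamp loader, had a difference between genotypes of -1.09 on Day 0 and 1.22 on Day 4. It was at 4.14 and 1.41 FPKM on Day 0 and at 0.751 and 3.07 on Day 4, where it passed only through Tfeb ΔIEC.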

How the results depend on the processing

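Of 172 values of medians and counts under the alternatives, 132 stayed within 1.5 times the main count or within the interval of the main median, and 40 did not. Of 279 values of single genes at least 2-fold apart, none changed sign and 54 went under 2-fold. Main counts of genes at least 2-fold higher and lower in Tfeb ΔIEC were 4 and 4 on Day 0, 7 and 6 on Day 4, and 10 and 6 on Day 11. With a pseudocount of 0.1, 7 were higher on Day 0, and 12 higher and 11 lower on Day 4. With a pseudocount of 5, the counts were 0 and 2, 3 and 3, and 3 and 3. With a minimum of 5 FPKM, 2, 3 and 3 were higher on Days 0, 4 and 11, the mitotic median of Day 11 was -0.94, and the S phase and mitotic medians of Day 4 turned from 0.32 and 0.09 to -0.48 and -0.86, values equal to the lower bounds of the intervals of the main medians. After subtraction of the median of genes of like length, 2 were lower on Day 0, and 4 were higher and 11 lower on both later days. After division by sums, 12 were higher and 0 lower on Day 4, and 1 was lower on Day 11. At 1.5-fold, 13 were higher and 9 lower on Day 0, 13 and 11 on Day 4, and 11 lower on Day 11. At 4-fold the counts were 0 and 0, 1 and 0, and 2 and 1. The Day 4 minus Day 0 medians moved with a pseudocount of 0.1 to -1.85 (mitotic, Tfeb flox/flox), -1.37 (S phase, Tfeb ΔIEC) and -1.58 (mitotic, Tfeb ΔIEC), with a pseudocount of 5 to -0.41 and -0.56 (S phase and mitotic, Tfeb flox/flox) and -0.44 and -0.62 (Tfeb ΔIEC), and with centring on all genes to -0.79 (mitotic, Tfeb ΔIEC). Counts at another threshold move by construction, and the cause of the other shifts was not tested. Omitting values of 0 and leaving Ccna2, Top2a and Mki67 out of the mitotic list moved none of these values beyond those limits. For the Day 4 minus Day 0 medians of mitotic genes both were added after the data had been seen.

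No paired analysis was possible because each table holds 1 pooled value per genotype, and for the same reason no leave-one-out was run. The estimated number of fragments, under 10 for most of the 46 genes in Tfeb flox/flox on Day 4, limits what single values can show.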

Other observations

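Further regulators of G1, a list of 24 genes beside the 7 described, were mostly low in these cells, and 9 passed 1 FPKM in either genotype on Day 4. Of these, 2 were at least 2-fold higher in Tfeb ΔIEC and 0 lower, where 25.6% and 26.1% of all genes were, with a median difference of 0.44. Of the 9, 4 (E2f8 among them) passed only through Tfeb ΔIEC and 0 only through Tfeb flox/flox, so the count describes a selected set. Ccng1 (cyclin G1), a target of p53, was at 7.64 FPKM in Tfeb flox/flox against 14.6 in Tfeb ΔIEC on Day 0 and at 1.99 and 10.6 on Day 4. E2f8, a repressor of the E2F family, was at 0.709 and 1.25 FPKM on Day 0 and listed at 0 and at 1.19 FPKM on Day 4. Rbl2 (p130), a pocket protein, was at 2.68 and 1.09 FPKM on Day 0 and at 0.239 and 1.12 on Day 4. Myc, which drives growth and G1 entry, was at 8.60 and 5.99 FPKM on Day 0 and at 4.25 and 2.00 on Day 4. Cdc25a, the phosphatase that activates Cdk2, was at 4.81 and 3.25 FPKM on Day 0 and at 3.22 and 1.92 on Day 4. Ccnd3 (cyclin D3), the remaining D cyclin, was at 13.0 and 16.3 FPKM on Day 0 and at 5.16 and 5.99 on Day 4. From Day 0 to Day 4, 6 of 12 of these genes that passed were at least 2-fold lower in Tfeb flox/flox and 4 of 14 in Tfeb ΔIEC, where 25.7% and 15.6% of all genes were, and none was 2-fold higher. Of these genes, 7 of the 12 and 5 of the 14 passed the filter only through Day 0, so these counts too describe selected sets.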
